A study of Mus musculus with 9 samples.

Results

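AP-1 is a family of transcription factors that bind DNA as pairs of basic leucine zipper proteins. The 8 genes described here encode the FOS proteins (*Fos*, *Fosb*, *Fosl1* and *Fosl2*), the JUN proteins (*Jun*, *Junb* and *Jund*) and the related factor ATF3 (*Atf3*). They were taken by name from the 55416 genes of the deposited tables, and each name matched 1 gene. A FOS protein binds DNA only together with a JUN protein, whereas JUN proteins can also pair with each other and with ATF proteins. Several of these genes are immediate early genes, which growth factors, serum and stress switch on within minutes through MAP kinases, and in bone the family takes part in the differentiation of osteoblasts and osteoclasts and in the production of matrix.

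RNA was sequenced from MC3T3-E1 cells, a clonal wild-type pre-osteoblast line from mouse calvarial bone that was differentiated toward osteocyte-like cells in medium with serum, ascorbic acid, dexamethasone and β-glycerophosphate (BGP). On day 27 cells received 4 mM of the organic phosphate BGP, 4 mM of the inorganic phosphate NaHPO4 (a mixture of the monobasic and dibasic sodium salts) or no added phosphate (Control), and were treated for 16 h. No other time was sequenced, so a change that came and went earlier was not measured. The labels give BGP in the differentiation medium up to that day, whereas the study's text has BGP removed earlier, so earlier BGP exposure is shared by all groups, Control included. Each group had 3 libraries, and the labels do not say whether these came from separate cultures, so p-values measure the spread between these libraries only. The study asked how organic and inorganic phosphate differ in their effect on cells that express *Fgf23*, and here the 8 AP-1 genes were followed through the comparisons of BGP with Control, NaHPO4 with Control and BGP with NaHPO4.

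Total counts ranged from 21390839 to 28234404 per library, and replicates differed by more than sampling noise (chi-square per degree of freedom from 2.64 to 4.88). The 11 osteoblast and osteocyte markers examined all passed the filter on low counts described below, with a summed level in CPM (counts scaled to a common library total) of 55061 to 58225 in Control, 53587 to 56737 with BGP and 49920 to 52862 with NaHPO4. Every NaHPO4 library was thus below every other library in this sum, most of which came from *Col1a1* and *Ibsp*. *Col1a1* alone was 41045 to 45262 CPM in Control and 35520 to 38514 CPM with NaHPO4. Of these 11 markers, 1 rose and 4 fell at an FDR below 0.05 with NaHPO4 against Control, against 3.43% and 3.95% of all genes tested. The 1 that rose was *Dmp1*, at 67.0 to 87.4 CPM in Control and 314 to 369 CPM with NaHPO4. *Dmp1* was higher still with BGP, at 515 to 597 CPM. With BGP against Control, 2 markers rose and 0 fell at this FDR, against 1.86% and 0.665% of all genes tested. Between the phosphates, 5 markers were higher with BGP and 0 lower, against 3.33% and 2.05% of all genes tested. Of 12 markers of other cell types, 3 passed the filter on low counts (*Cd68*, *Col2a1* and *Sox9*), and the muscle markers *Myog* and *Myod1* were at 0 in every library. The summed level of these 12 markers, most of it from the cartilage collagen *Col2a1*, was 247 to 307 CPM in Control, 336 to 444 CPM with BGP and 187 to 269 CPM with NaHPO4. The part of either marker list in the results below was not tested. Both sums were scaled by total counts, and all other CPM values were scaled by TMM (edgeR's normalization factors). In RNA from whole wells, a change in the number of cells of a type and a change in RNA per cell cannot be told apart.

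In GRCm39, the build the counts were made on, *Fos* (ENSMUSG00000021250) lies at chr12:85520658-85524047 on the plus strand and *Fosb* (ENSMUSG00000003545) at chr7:19036621-19043976 on the minus strand. *Fosl1* (ENSMUSG00000024912) lies at chr19:5497575-5505974 and *Fosl2* (ENSMUSG00000029135) at chr5:32292707-32315186, both on the plus strand. *Jun* (ENSMUSG00000052684) lies at chr4:94937271-94940459 and *Junb* (ENSMUSG00000052837) at chr8:85701113-85705359, both on the minus strand. *Jund* (ENSMUSG00000071076) lies on the plus strand at chr8:71151599-71153265 and *Atf3* (ENSMUSG00000026628) on the minus strand at chr1:190902493-190950241. The canonical transcripts of *Jun*, *Junb* and *Jund* have 1 exon, and those of the other 5 genes have 4 exons. On the opposite strand, *Jun* shares 528 exon bases with *Junos*, *Junb* 173 with *Prdx2* and *Jund* 877 with *Gm11175*, and the sources used here do not say whether strand was used in counting. *Prdx2* and *Gm11175* passed the FDR in no comparison, and *Junos* did not pass the filter on low counts.

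The 400 bases upstream of each canonical start were searched on both strands for DNA elements through which AP-1 genes are known to be controlled. The CArG box, the site of serum response factor (SRF), was found in *Fos* and *Fosb* and in 2.21% of the 21754 protein-coding promoters. The cyclic AMP response element TGACGTCA was found in *Jund* and in 1.87% of all promoters, and the EGR site GCGNGGGCG in *Fosb* and *Jund* and in 5.13% of all promoters. The AP-1 site TGANTCA itself was in 0 of the 8 windows and in 9.87% of all promoters, and no searched letters were found in the windows of *Fosl1*, *Fosl2*, *Jun*, *Junb* and *Atf3*. The stretches below are read 5′ to 3′ on the strand of the gene from the GRCm39 sequence. They show the CArG box shared by *Fos* and *Fosb*, and in *Jund* both of the other elements found. Capitals mark the CArG box in *Fos* (chr12:85520315-85520404, plus strand) and *Fosb* (chr7:19044193-19044282, minus strand), and in *Jund* (chr8:71151379-71151578, plus strand) first the TGACGTCA element and then 3 EGR sites.
Fos: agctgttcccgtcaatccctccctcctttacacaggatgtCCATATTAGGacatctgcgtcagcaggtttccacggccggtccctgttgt
Fosb: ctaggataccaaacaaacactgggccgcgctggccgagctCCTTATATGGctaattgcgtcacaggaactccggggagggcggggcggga
Jund: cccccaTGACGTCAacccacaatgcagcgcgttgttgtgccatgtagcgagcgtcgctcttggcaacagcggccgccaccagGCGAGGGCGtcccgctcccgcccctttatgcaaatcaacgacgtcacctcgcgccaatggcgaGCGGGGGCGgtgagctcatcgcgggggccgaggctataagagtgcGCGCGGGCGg
A CArG box lay 303 to 294 bases upstream of the start in *Fos* and 266 to 257 bases upstream in *Fosb*. The EGR sites of *Fosb*, 376 to 368 and 44 to 36 bases upstream, lie outside the stretch shown. These matches describe letters in the promoters and do not show that a factor was bound.

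All 8 genes passed the filter on low counts (filterByExpr in edgeR, minimum count 10), but at very different levels. Levels between genes were compared as CPM per kb of exon, over all exon bases of the gene. In Control, *Jund* was the highest at 27.3 ± 1.04 CPM per kb (SD, n = 3), followed by *Junb* at 25.3 ± 0.765 and *Fosl2* at 14.4 ± 0.662, and the libraries of these neighbours did not overlap. The order of *Jund* and *Junb* rests on the length used, and turned when levels were divided by the longest transcript, with *Junb* at 33.3 ± 1.01 CPM per kb above *Jund* at 27.3 ± 1.04. *Fos* followed at 2.28 ± 0.127 CPM per kb and *Jun* at 1.84 ± 0.0805, again without overlap. Lowest in level were *Fosb* at 0.658 ± 0.0632, *Fosl1* at 0.561 ± 0.185 and *Atf3* at 0.359 ± 0.0840 CPM per kb, and the libraries of these 3 genes overlapped from each to the next. The differentiated cells thus held mostly *Jund*, *Junb* and *Fosl2* transcripts and few of *Fos* and *Jun*.

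With BGP the order by level was *Junb* (33.8 ± 2.69 CPM per kb, SD, n = 3), *Jund* (21.7 ± 3.16), *Fosl2* (14.7 ± 0.734), *Fos* (2.51 ± 0.247), *Jun* (2.02 ± 0.236), *Fosl1* (0.770 ± 0.0685), *Fosb* (0.751 ± 0.0759) and *Atf3* (0.292 ± 0.0792), with overlap between *Fosl1* and *Fosb* only. With NaHPO4 it was *Junb* (25.2 ± 2.12 CPM per kb, SD, n = 3), *Jund* (22.2 ± 0.941), *Fosl2* (13.7 ± 0.157), *Jun* (1.96 ± 0.107), *Fos* (1.67 ± 0.182), *Fosl1* (1.32 ± 0.264), *Fosb* (0.636 ± 0.0401) and *Atf3* (0.369 ± 0.0552). There the libraries of *Junb* and *Jund*, of *Jun* and *Fos*, and of *Fos* and *Fosl1* overlapped. Dividing by the longest transcript left 6 of the 8 genes at the same rank in Control, 4 with BGP and 8 with NaHPO4. With BGP *Fosl2* (21.9 ± 1.09 CPM per kb) then stood level with *Jund* (21.7 ± 3.16), whose libraries it overlapped, and *Fosb* (1.24 ± 0.125) stood above *Fosl1* (0.840 ± 0.0747). By that length the libraries of *Fosb* and *Fosl1* in Control, and of *Junb* and *Jund* with NaHPO4, no longer overlapped.

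**Figure D1:**
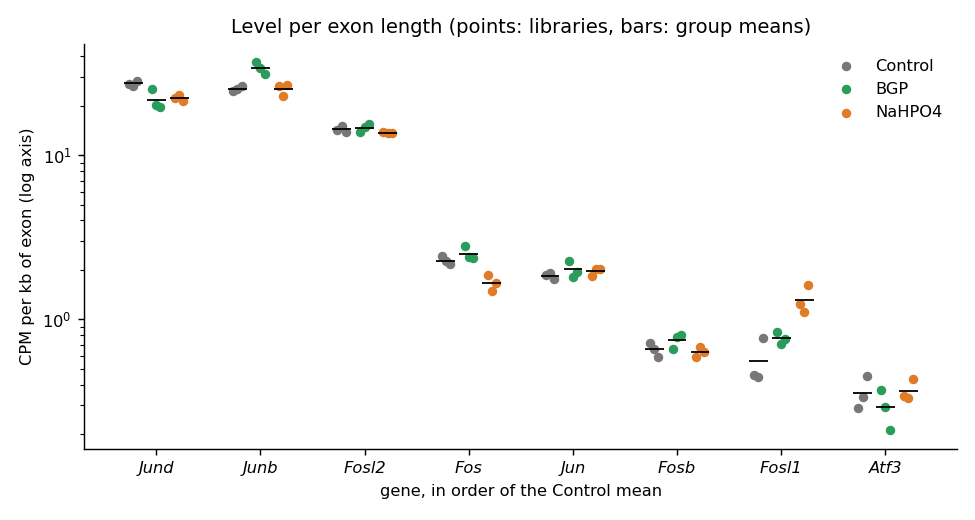
Level of the 8 AP-1 genes in CPM per kb of exon (log axis) in each library of Control (grey), BGP (green) and NaHPO4 (orange), with bars at the group means. *Jund*, *Junb* and *Fosl2* lie above 13 CPM per kb in every group, and the other 5 genes lie below 3.

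Between BGP and Control, *Junb* rose and *Jund* fell, while the FOS genes, *Jun* and *Atf3* did not pass the test. At an FDR below 0.05 with any log2 fold change (log2FC), 2 of the 8 genes changed, against 2.53% of the 13679 genes tested. A gene was called where its FDR was below 0.05 and its absolute log2FC was above 0.5, which 0 of the 8 genes met in edgeR's quasi-likelihood test, against 0.556% of the genes tested. At an unadjusted p under 0.05, 2 of the 8 genes differed, against 13.4% of all genes tested. DESeq2, limma and edgeR's likelihood ratio test called 0 of the 8 genes as well. The median log2FC of the 8 genes was 0.14, beside -0.0043 over all genes tested.

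*Junb* encodes a JUN protein that is an immediate early factor in many cells and often restrains c-JUN. Its levels were 58.6, 60.04 and 62.2 CPM in Control, 87.2, 80.1 and 74.4 CPM with BGP, and 62.6, 54.3 and 63.4 CPM with NaHPO4. All BGP libraries lay above all libraries of the other groups, and NaHPO4 and Control overlapped. *Junb* was 1.33-fold higher with BGP than in Control (log2FC 0.42, SE 0.0541, FDR = 1.62e-06 in the edgeR fit) and 1.34-fold higher than under NaHPO4 (log2FC 0.42, SE 0.0533, FDR = 7.18e-07). NaHPO4 and Control did not differ beyond the spread (log2FC -0.01, 95% interval -0.12 to 0.10, FDR = 0.961), and this near-zero value turned positive with total counts, limma, a GC correction and some libraries left out. Both differences of BGP passed in all 19 alternative fits, with log2FC from 0.36 to 0.47 against Control and from 0.35 to 0.48 against NaHPO4.

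*Jund* encodes the JUN protein that most resting cells express and that is associated with slower growth. It measured 45.3, 43.9 and 47.3 CPM in Control, 42.2, 33.7 and 32.6 CPM with BGP, and 37.2, 38.4 and 35.3 CPM with NaHPO4. Every treated library lay below every Control library, with BGP replicate 1 the nearest to Control, and the 2 phosphates overlapped. Against Control, *Jund* fell 1.26-fold with BGP (log2FC -0.33, SE 0.0664, FDR = 0.00169 in the edgeR fit) and 1.23-fold with NaHPO4 (log2FC -0.30, SE 0.0648, FDR = 0.00190). The phosphates were not separated from each other (log2FC of BGP versus NaHPO4 -0.03, 95% interval -0.17 to 0.10, FDR = 0.870). Both decreases were measured against the same Control libraries, and both passed in all 19 alternative fits. *Jund* had the highest GC content of the 8 genes (67.2% of its exon bases), and with a GC correction its log2FC was -0.23 with BGP (FDR = 0.0389) and -0.21 with NaHPO4 (FDR = 0.0343).

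The third JUN gene, *Jun*, encodes c-JUN, the classical partner of c-FOS and a target of JNK. It was low, from 5.59 to 6.09 CPM in Control, 5.79 to 7.26 CPM with BGP and 5.86 to 6.46 CPM with NaHPO4. The groups overlapped in each comparison, with log2FC of 0.13 (95% interval -0.13 to 0.39) for BGP and 0.09 (95% interval -0.17 to 0.35) for NaHPO4 against Control and 0.04 (95% interval -0.22 to 0.29) between the phosphates. These intervals leave out changes of 1.5-fold in either direction.

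**Figure D2:**
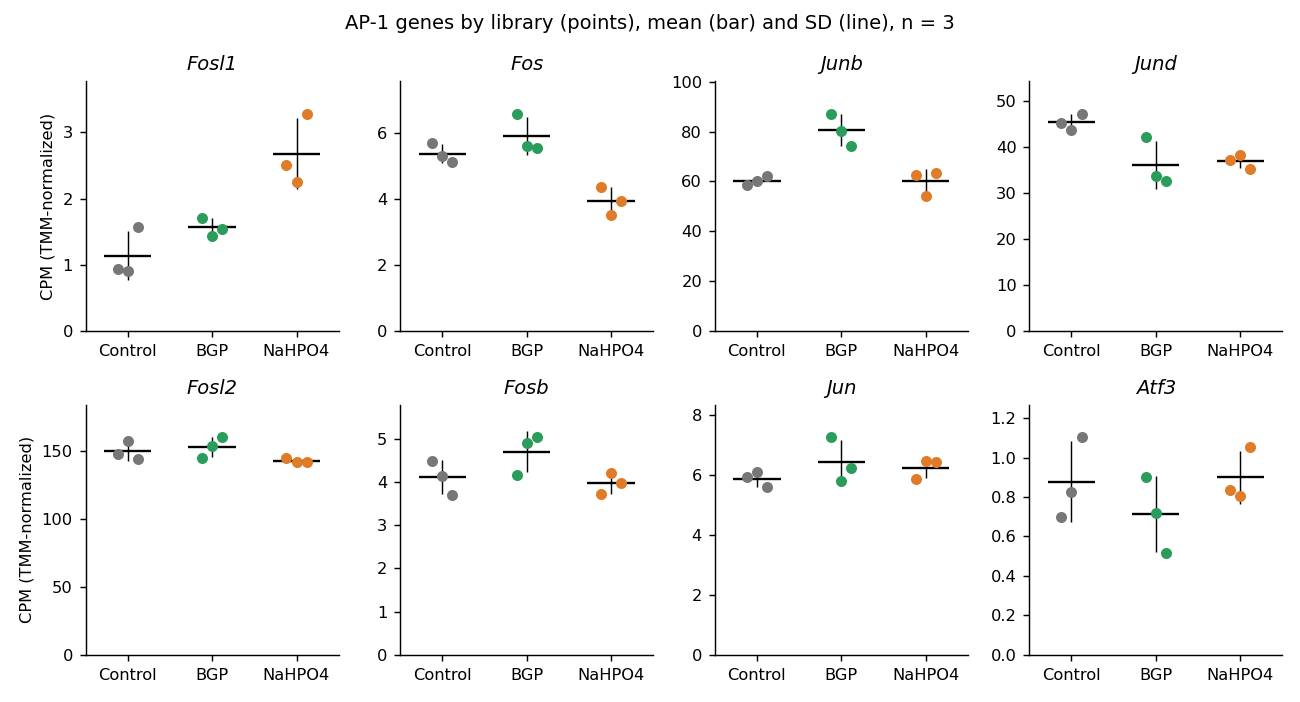
TMM-normalized CPM of each AP-1 gene in the 3 libraries of each group (points), with the group mean (horizontal bar) and SD (vertical line); each panel has its own axis from 0. *Junb* is highest in the BGP libraries, *Fosl1* in the NaHPO4 libraries, *Fos* is lowest in the NaHPO4 libraries, and *Jund* is highest in Control.

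The balance of the JUN transcripts differed between the groups. Of the summed CPM per kb of the 3 JUN genes, *Junb* held 46.5% ± 0.666 (SD, n = 3) in Control, 58.9% ± 1.72 with BGP and 51.1% ± 3.04 with NaHPO4. *Jund* held 50.1% ± 0.771 in Control, 37.6% ± 1.62 with BGP and 45.0% ± 2.89 with NaHPO4, and *Jun* held from 3.11% to 4.23% in any library. For *Junb* and *Jund*, the shares in the BGP libraries did not overlap with those of the other groups. Per kb of the longest transcript, *Junb* held the larger share in Control too, with 53.4% ± 0.666 for *Junb* and 43.7% ± 0.748 for *Jund*, against 65.3% ± 1.61 and 31.7% ± 1.51 with BGP and 57.8% ± 2.98 and 38.7% ± 2.81 with NaHPO4, and the BGP libraries again did not overlap with the others. Over all exon bases, the summed level itself was 54.5 ± 1.57 CPM per kb in Control, 57.6 ± 5.96 with BGP and 49.4 ± 1.35 with NaHPO4.

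**Figure D3:**
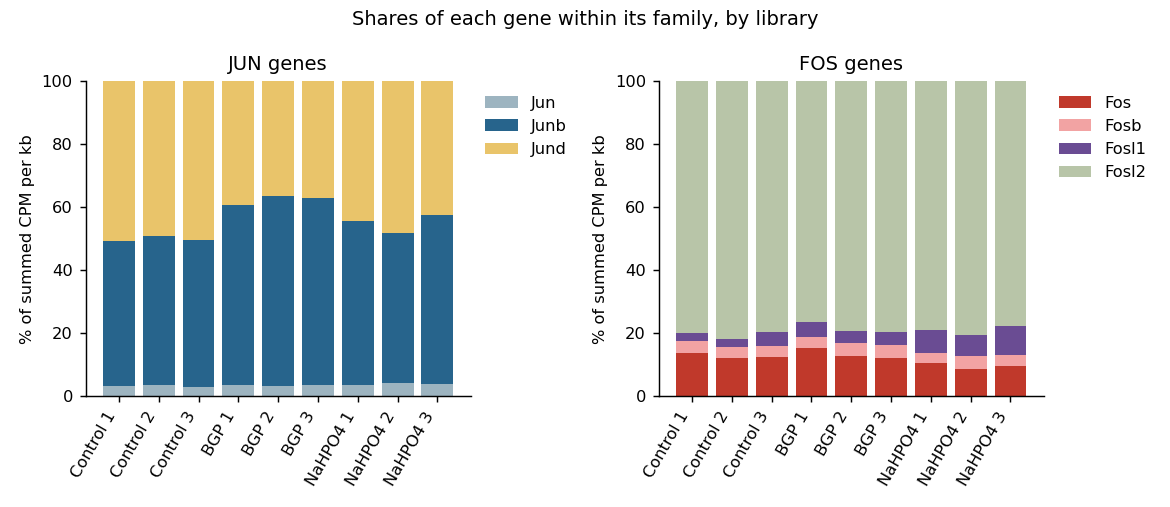
Share of each JUN gene (left) and each FOS gene (right) in the summed CPM per kb of its family, in percent, for each of the 9 libraries. In the BGP libraries *Junb* takes 57.0% to 60.4% of the JUN sum, and *Fosl2* takes 76.4% to 81.8% of the FOS sum in all libraries.

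Between NaHPO4 and Control, *Fosl1* rose more than 2-fold, *Jund* fell as described, and *Fos* fell at the edge of the threshold. Of the 8 genes, 1 was called (*Fosl1*, higher), against 0.716% of the genes tested, and 3 passed the FDR with any log2FC, against 7.38%. The libraries of the groups did not overlap for 3 of the 8 genes, against 23.2% of the genes tested, and for BGP versus Control they did not overlap for 2 of the 8 genes, against 18.5%. The median log2FC of the 8 genes was -0.03, beside 0.0001 over all genes tested.

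*Fosl1* encodes FRA-1, a FOS protein without the strong activation domain of c-FOS, which promotes the production of bone matrix when overexpressed in mice. Its counts were 20, 21 and 40 in Control, 38, 32 and 36 with BGP, and 69, 64 and 84 with NaHPO4. Normalized, these were 0.93, 0.91 and 1.57 CPM in Control, 1.71, 1.44 and 1.55 CPM with BGP, and 2.51, 2.25 and 3.28 CPM with NaHPO4. The NaHPO4 libraries lay above all others, while Control replicate 3 lay among the BGP libraries and apart from the other 2 Control libraries. *Fosl1* was 2.31-fold higher with NaHPO4 than in Control (log2FC 1.21, SE 0.252, FDR = 0.00133 in the edgeR fit), and it passed in all 19 alternative fits, with log2FC from 1.04 to 1.53. With BGP the difference from Control did not pass (log2FC 0.44, 95% interval -0.13 to 1.00, FDR = 0.532), nor did it without Control replicate 3, where the log2FC was 0.76 (FDR = 0.287).

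Compared directly, *Fosl1* had a log2FC of -0.77 for BGP versus NaHPO4 (95% interval -1.26 to -0.28, FDR = 0.0548), which missed the threshold although the libraries did not overlap. This difference passed in 9 of the 19 alternative fits, with FDR from 0.0169 to 0.276. The gene shares 1163 exon bases with *Ccdc85b* on the opposite strand. *Ccdc85b* was lower with NaHPO4 than in Control (log2FC -0.23, FDR = 0.0346 in the edgeR fit) and lower with BGP (log2FC -0.45, FDR = 0.000105). Whether the shared bases affected the counts of *Fosl1* was not tested.

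*Fos* encodes c-FOS, the prototype of the immediate early genes. It measured 5.70, 5.31 and 5.12 CPM in Control, 6.59, 5.61 and 5.54 CPM with BGP, and 4.37, 3.51 and 3.94 CPM with NaHPO4, from 100 to 146 counts per library. The NaHPO4 libraries were the 3 lowest, and BGP and Control overlapped. Against Control, NaHPO4 lowered *Fos* 1.36-fold (log2FC -0.45, SE 0.143, FDR = 0.0485 in the edgeR fit), but the change passed in only 5 of the 19 alternative fits, with FDR from 0.0216 to 0.206. The difference between BGP and Control did not pass (log2FC 0.14, 95% interval -0.14 to 0.42, FDR = 0.732).

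Between BGP and NaHPO4, *Fos* and *Junb* were higher with BGP. *Fos* had a log2FC of 0.59 (SE 0.141, FDR = 0.00764 in the edgeR fit) and was the only called gene of the 8, against 0.585% of the genes tested. Its call was lost without BGP replicate 1 (log2FC 0.50, FDR = 0.0793) and without NaHPO4 replicate 2 (log2FC 0.51, FDR = 0.0643), and it passed the FDR in the other 17 alternative fits. With any log2FC, 2 of the 8 genes passed the FDR, against 5.38% of the genes tested, and the libraries did not overlap for 4 of the 8 genes, against 21.2%. The median log2FC was 0.07, beside -0.0018 over all genes tested. *Col2a1* likewise had more transcripts under BGP (log2FC 0.95, FDR = 4.96e-09), and its part in the result was not tested.

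**Figure D4:**
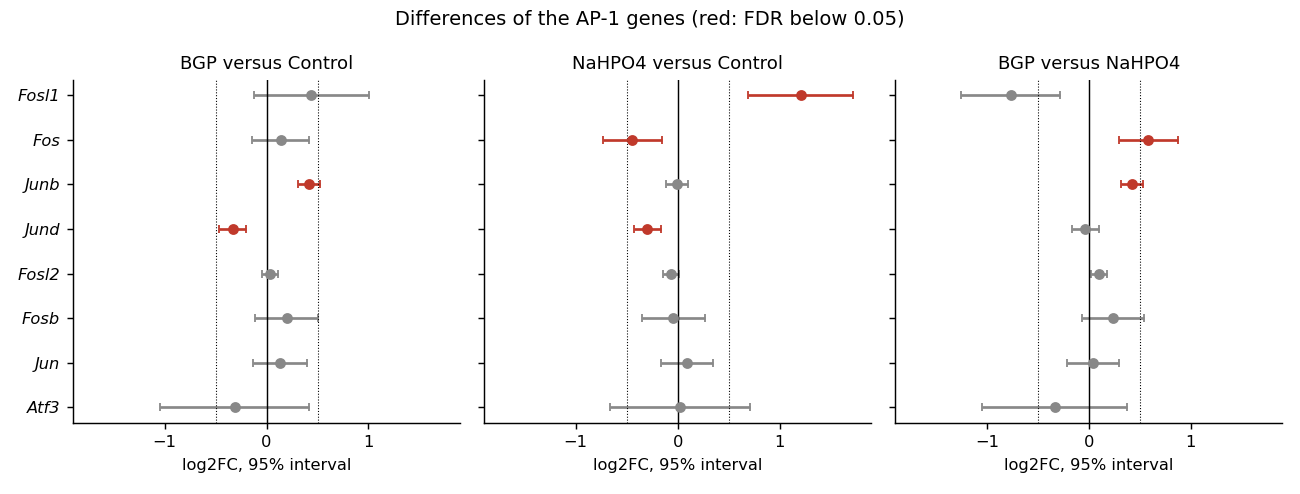
The log2FC of the 8 AP-1 genes (points) with 95% intervals (lines) in the 3 comparisons, in red where the FDR was below 0.05; dotted lines mark a log2FC of 0.5 in either direction. The interval of *Fosl1* for NaHPO4 versus Control runs from 0.69 to 1.72, and that of *Fosl2* spans less than 0.2 in each comparison.

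*Fosl2* and *Fosb* passed the FDR in no comparison. *Fosl2*, which encodes FRA-2, a regulator of collagen and osteocalcin genes in osteoblasts, held 80.4% ± 1.22 (SD, n = 3) of the summed CPM per kb of the FOS genes in Control, 78.4% ± 1.79 with BGP and 79.1% ± 1.52 with NaHPO4. Its levels were 144 to 157 CPM in Control, 145 to 160 CPM with BGP and 141 to 144 CPM with NaHPO4. *Fosl2* was the most precisely measured of the 8 genes, and its 95% intervals held any difference from Control between -0.15 and 0.11 on the log2 scale. The BGP libraries lay just above the NaHPO4 libraries (log2FC 0.10, 95% interval 0.02 to 0.18), but the FDR was 0.155. *Fosl1* held 3.16% ± 1.13 of the FOS sum in Control, 4.12% ± 0.447 with BGP and 7.59% ± 1.42 with NaHPO4, and *Fos* held 12.8% ± 0.753, 13.4% ± 1.68 and 9.63% ± 0.870.

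*Fosb*, an immediate early gene whose short isoform raises bone mass in mice, measured 3.70 to 4.49 CPM in Control, 4.15 to 5.03 CPM with BGP and 3.71 to 4.21 CPM with NaHPO4. All groups overlapped, and the log2FC was 0.20 (95% interval -0.11 to 0.51) for BGP and -0.04 (95% interval -0.35 to 0.27) for NaHPO4 against Control, and 0.24 (95% interval -0.06 to 0.55) between the phosphates. *Atf3*, a stress-induced gene whose product pairs with JUN proteins, was the least counted, at 12 to 28 counts per library. It measured 0.70 to 1.10 CPM in Control, 0.52 to 0.90 CPM with BGP and 0.81 to 1.05 CPM with NaHPO4, and the groups overlapped. At this depth its 95% intervals were wide, from -1.04 to 0.42 for BGP versus Control, from -0.66 to 0.71 for NaHPO4 versus Control and from -1.05 to 0.38 for BGP versus NaHPO4, and changes within these intervals are not excluded.

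For the genes called in any comparison, the tested genes with the most similar pattern of log2 CPM over the 9 libraries were found. For *Fos* these were *Ambra1* (Pearson r = 0.984), *Gm20621* (r = 0.977) and *Hspa8* (r = 0.967), and for *Fosl1* they were *Xpo7* (r = 0.971), *Nme1* (r = 0.968) and *Stat3* (r = 0.964). These are the highest of many correlations over libraries that share the group structure, and by Spearman's rho 0 of the 3 genes for *Fos* and 1 of the 3 for *Fosl1* stayed among the first 3. Their differences between groups were much smaller, such as a log2FC of 0.21 for *Stat3* with NaHPO4 against 1.21 for *Fosl1*.

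Of 28 listed genes of the RAS, RAF, ERK, JNK and p38 pathways and their nuclear targets, 27 were tested and 0 were called in any comparison by edgeR's quasi-likelihood or likelihood ratio test, DESeq2 or limma. Of all genes tested, 0.556% to 0.716% were called, so this count says nothing particular of the list. For BGP versus Control 0 passed the FDR by any of these tools, against 2.53% of all genes tested in the edgeR fit. An unadjusted p under 0.05 was found for 5, against 13.4% of all genes tested. The lowest were those of the p38 gene *Mapk11* (log2FC 0.29, FDR = 0.101 in the edgeR fit) and the JNK gene *Mapk8* (log2FC 0.19, FDR = 0.118). *Srf*, whose product binds the CArG box shown above for *Fos* and *Fosb*, fell with NaHPO4 (log2FC -0.27, SE 0.0508, FDR = 0.00041 in the edgeR fit) and had a higher level under BGP than under NaHPO4 (log2FC 0.27, FDR = 0.000546). It was the 1 gene of this list past the FDR in each of these comparisons, against 7.38% and 5.38% of all genes tested. Its levels were 50.0 to 55.0 CPM in Control, 49.8 to 55.4 CPM with BGP and 42.9 to 43.9 CPM with NaHPO4. Whether the level of *Srf* bears on that of *Fos* or *Fosb* was not tested. Next after *Srf* were *Elk3*, a partner of SRF, for NaHPO4 versus Control (log2FC 0.13, FDR = 0.0760) and *Hras* for BGP versus NaHPO4 (log2FC 0.10, FDR = 0.356). The median log2FC of the list was 0.01 for BGP and 0.02 for NaHPO4 against Control, and -0.01 between the phosphates.

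Of 12 other basic leucine zipper genes related to AP-1, 9 were tested and 0 were called, against 0.556% to 0.716% of all genes tested, so the count says nothing particular of these genes. *Maf* fell slightly with BGP (log2FC -0.14, FDR = 0.0140 in the edgeR fit). It was the 1 gene of the list past the FDR in any comparison, against 2.53% to 7.38% of all genes tested. The next values were 0.19 for *Mafk* with BGP (FDR = 0.302), -0.09 for both *Maf* (FDR = 0.0977) and *Atf2* (FDR = 0.254) with NaHPO4, and, between the phosphates, 0.15 for *Mafk* (FDR = 0.369) and -0.05 for *Maf* (FDR = 0.504). At an unadjusted p under 0.05, 2, 1 and 0 of these 9 genes differed in the 3 comparisons, against 13.4%, 19.9% and 16.9% of all genes tested. Of 4 genes for the turnover of AP-1 proteins, 0 passed the FDR in any comparison by the 4 tools, against 2.53% to 7.38% of all genes tested in the edgeR fit. Only the ubiquitin ligase *Itch* with NaHPO4 had an unadjusted p under 0.05 (log2FC 0.09, FDR = 0.175), against 19.9% of all genes tested. These counts say nothing particular of the 4 genes. *Itch* (log2FC 0.05) and *Cop1* (log2FC 0.06) had the lowest p for BGP versus Control, *Cops5* (log2FC 0.06) followed *Itch* with NaHPO4, and *Cops5* (log2FC -0.06) and *Itch* (log2FC -0.03) were first between the phosphates.

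Other immediate early genes were also compared, since MAP kinases act on many of them, as on *Fos*. Of 19 listed names 17 were tested. For BGP versus Control 7 rose and 0 fell at the FDR, against 1.86% and 0.665% of all genes tested. Of these 7, 4 were called, all higher, against 0.482% of all genes called higher and 0.0731% called lower: *Egr3* (log2FC 1.83, FDR = 1.17e-21 in the edgeR fit), *Egr2* (1.37, FDR = 1.82e-12), *Arc* (0.94, FDR = 0.000708) and *Egr1* (0.89, FDR = 4.99e-18). The list was chosen with earlier results of these data known. The study had already reported these 4 genes as higher with BGP in the same libraries, so their excess is no independent support. The list's median log2FC was 0.09. The EGR genes encode zinc finger factors, and these values stand beside a log2FC of 0.42 for *Junb* and 0.14 for *Fos* in the same comparison.

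With NaHPO4, 2 of the 17 genes rose and 6 fell relative to Control, against 3.43% and 3.95% of all genes tested, with a median log2FC of -0.16. *Egr3* alone was called, against 0.446% of all genes called higher and 0.270% called lower (log2FC 0.85, FDR = 2.84e-11 in the edgeR fit). For BGP versus NaHPO4, 10 of the 17 were higher with BGP and 0 lower, against 3.33% and 2.05% of all genes tested. All 7 called genes were higher, against 0.380% of all genes called higher and 0.205% called lower, led by *Egr2* (log2FC 1.54, FDR = 3.25e-13), *Egr1* (1.16, FDR = 5.68e-21), *Egr3* (0.98, FDR = 7.09e-14) and the orphan receptor *Nr4a1* (0.87, FDR = 7.12e-09). The median of the list was 0.32, beside the 0.07 of the AP-1 genes. As the list was chosen with earlier results of these data known, neither its counts nor its median is independent support. *Egr1* measured 98.8 to 109 CPM in Control, 184 to 205 CPM with BGP and 83.6 to 88.0 CPM with NaHPO4, so that, like *Fos*, it was lowest in every NaHPO4 library.

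**Figure D5:**
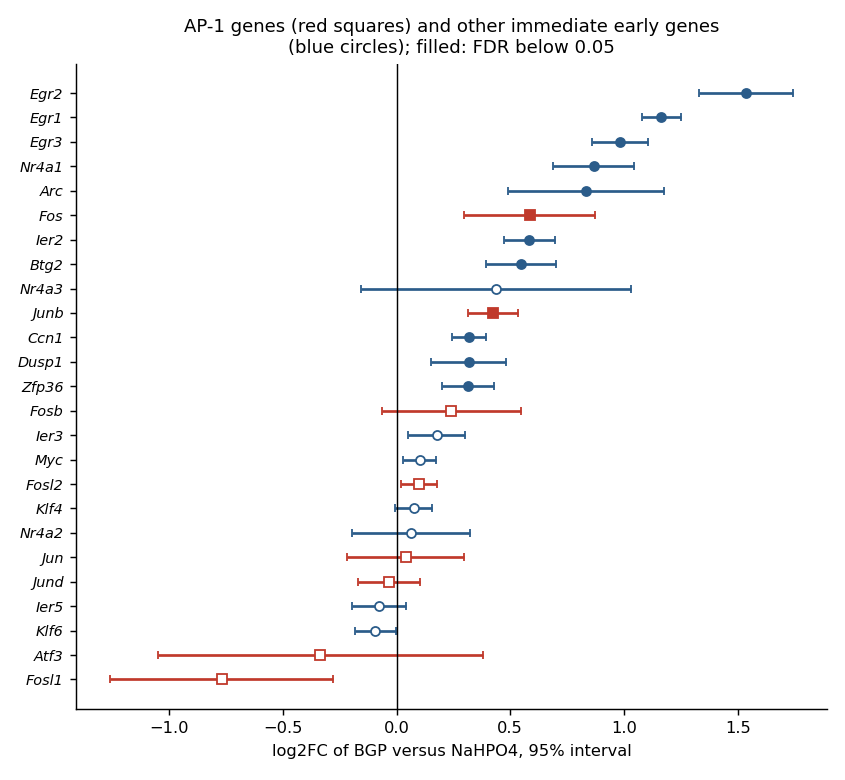
The log2FC of BGP versus NaHPO4 (points, with 95% intervals) for the 8 AP-1 genes (red squares) and 17 other immediate early genes (blue circles), sorted by value and filled where the FDR was below 0.05. *Fos* (0.59) and *Junb* (0.42) lie within the range of the other immediate early genes, and *Fosl1* (-0.77) has the lowest value.

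Of 22 listed genes that AP-1 is known to control in bone and other tissues, 18 were tested. *Spp1*, the gene of osteopontin, and *Timp1*, an inhibitor of matrix metalloproteinases, were called higher with both phosphates, with log2FC of 1.48 and 1.00 for BGP and 1.97 and 1.62 for NaHPO4 against Control. These were the 2 called genes of the 18 in each comparison, against 0.482% of all genes called higher with BGP and 0.446% with NaHPO4. *Timp1* was called lower in the BGP libraries than in the NaHPO4 libraries (log2FC -0.62, FDR = 4.84e-12 in the edgeR fit). It was the 1 called gene of the 18 there, against 0.205% of all genes called lower and 0.380% called higher. This list, too, was chosen with earlier results of these data known. The levels of *Timp1* were 135 to 152 CPM in Control, 279 to 305 CPM with BGP and 420 to 494 CPM with NaHPO4, so the NaHPO4 libraries were the highest, as for *Fosl1*.

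At the FDR with any log2FC, 3 of the 18 target genes rose and 0 fell with BGP, and 4 rose and 3 fell with NaHPO4. Over all genes tested, 1.86% rose and 0.665% fell with BGP, and 3.43% rose and 3.95% fell with NaHPO4. The others, named after their values were seen, were *Mgp*, higher with both (log2FC 0.50 and 0.48), the protease *Plau*, higher with NaHPO4 (log2FC 0.37), and *Col1a1* (-0.22), *Col1a2* (-0.17) and *Bglap* (-0.15), lower with NaHPO4. Between the phosphates 5 of the 18 were higher and 3 lower with BGP, against 3.33% and 2.05% of all genes tested. The median log2FC of the list was 0.03 for BGP and -0.01 for NaHPO4 against Control and 0.02 between the phosphates, near those of all genes tested.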

How the data were processed

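The authors deposited raw counts per Ensembl gene, made by checking and pairing reads of stranded poly(A) libraries, running FastQC and mapping to GRCm39 in the AIR software; aligner, counting program and use of strand are not given in the sources used here. They also deposited a signal table, the same counts times 1 TMM factor per library (1.01 to 1.32), used as an alternative only.

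Counts were filtered (filterByExpr, minimum 10; 13679 genes), scaled by TMM and fitted over all 9 libraries with edgeR 4.0.16 (glmQLFit, glmQLFTest; Benjamini-Hochberg over all genes tested). Standard errors came from the quasi-likelihood F statistic. Lengths, positions and promoters came from GENCODE M39 on GRCm39. This is another release than the Ensembl annotation the study names, so the lengths may include bases that were not counted. Its effect on ranks and shares was not tested. R 4.3.3, Python 3.11.15, pandas 2.3.3 and matplotlib 3.10.9 were used, and the procedure was tested on simulated data. Alternatives were the likelihood ratio test, DESeq2 1.42.0, limma 3.58.1 on log2(value + 1), other scalings and filters, 2-group fits, the replicate block, each library left out and, added after the data were seen, a GC correction and family shares by the longest transcript.

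Members and lists were chosen with earlier results of these data known. All members were named; from each list, the called genes (up to 4 by absolute log2FC), or the 2 with the lowest p, and for called members the 3 most correlated genes. Libraries with the same replicate number were not taken as pairs.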

Additional observations from a re-analysis of the deposited data

How the results depend on the processing

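Without a minimum log2FC, 2 AP-1 genes passed for BGP versus Control, 3 for NaHPO4 versus Control and 2 for BGP versus NaHPO4. For BGP versus NaHPO4 the count of called genes was also 2, with *Fosl1* added to *Fos*, under the likelihood ratio test, total counts, no filter on low counts, at least 10 counts in every library, only the 2 groups compared and the GC correction. Leaving out 1 library gave 0 to 2 called genes for BGP versus NaHPO4, 1 to 2 for NaHPO4 versus Control and 0 for BGP versus Control; the 0 came without BGP replicate 1 or NaHPO4 replicate 2, where *Fos* was lost. Why these counts moved was not tested beyond the smaller number of libraries.

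Same-numbered libraries were at most weakly alike: their deviations had a mean correlation of 0.0127 (-0.0092 to 0.0426 over 9 pairs), although 7 of 9 libraries correlated best with their own number. Between Control and NaHPO4 the same-numbered pairs had correlations of 0.0301, 0.0426 and 0.0409. Whether the numbers mark pairs is therefore not settled. With the number as a block, 2 genes were called for BGP versus NaHPO4, *Fosl1* having an adjusted p of 0.0460, and the counts of called genes in the other comparisons did not change.

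Signs changed only for values near 0 that passed in no fit. For NaHPO4 versus Control, *Junb* was 0.0036 with limma, 0.017 with total counts and 0.067 with the GC correction (-0.047 to 0.062 with a library left out), *Fosb* was 0.0035 with the GC correction (-0.12 to 0.022), and *Atf3* ranged from -0.11 to 0.23 with a library left out. With a library left out, *Fosl2* ranged from -0.0020 to 0.070 for BGP versus Control, and *Jun* from -0.056 to 0.11 and *Jund* from -0.16 to 0.037 for BGP versus NaHPO4. Low counts limit *Fosl1* and *Atf3* most.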
